A study of Mus musculus with 3 samples.

Results

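The neutrophils of the injured tendon were 365 cells of 1 single-cell RNA library, chosen by their own transcripts. A cell was kept when it had at least 200 detected genes and at most 20% of its unique molecular identifiers (UMIs, tags that mark single captured transcripts) on mitochondrial genes. It was counted as a neutrophil when S100a8 and S100a9, the subunits of calprotectin, made up at least 2% of its UMIs, when Csf3r, the receptor for G-CSF, had at least 1 UMI, when Csf1r, the receptor for macrophage colony-stimulating factor, had 0, and when the complement genes C1qa, C1qb and C1qc together had fewer than 10 UMIs per 10000. Of 5629 tendon cells 4978 were kept, and 365 of these met the rule, which is 7.33% (exact Clopper-Pearson 95% interval 6.62% to 8.09%); the 3 libraries of the series held 9725 cells in all. The genes in the rule set the membership and are not results below.

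The study followed inflammation after trauma in mice given a burn to the back together with a full cut of the Achilles tendon, an injury after which bone forms in the soft tissue (heterotopic ossification, HO). The mice were 10-week-old male C57BL/6J animals, all injured and none treated, and tissue was taken 3 days after surgery. Unsorted cells came from flushed bone marrow after red cell lysis, from blood spun on a Ficoll gradient to keep mononucleated cells and then lysed of red cells, and from the HO site after collagenase and dispase digestion at 37 °C. Each tissue gave 1 library, and neither the labels nor the methods say how many mice went into a library. Tissue, preparation and library therefore cannot be told apart in any comparison with blood or bone marrow, Ficoll keeps only those neutrophils that band with mononucleated cells, and the digestion was applied to the tendon alone. With 1 library per tissue no test was possible and no p-value is given. Intervals are exact 95% intervals that cover counting error only.

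The same rule picked 238 cells in blood and 947 in bone marrow, and the 830 bone marrow cells that also had a Cxcr2 UMI, the more mature ones, served for comparison. A level is the number of UMIs of a gene per 1000000 UMIs summed over the cells of a group (CPM), and ratios are log2 ratios of such levels with their interval in parentheses. The tendon neutrophils held 1623534 UMIs, with a median of 3670 per cell (quartiles 2801 and 4989) and 988 genes. Blood neutrophils held 2365697 UMIs with a median of 8799.5, and the bone marrow cells 20484861 with a median of 21850.5, so the tendon cells were the shallowest of these groups. A count of 0 is set to its limit of 3 UMIs over the group, 1.85 CPM in the tendon, 1.27 in blood and 0.146 in bone marrow, and a ratio against it is given as a lower bound.

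Neutrophils are short-lived granulocytes that are made in the bone marrow, held there and released through the chemokine receptors Cxcr4 and Cxcr2, and drawn from the blood into injured tissue by chemokines, lipids and peptides from damaged cells. Their granule proteins are transcribed in order while they mature, azurophil proteins before specific and gelatinase granule proteins, and genes of cytokines, chemokines and their feedback inhibitors are switched on later and on stimulation, largely by the transcription factor NF-kB. Irg1, an older symbol of Acod1, encodes the mitochondrial enzyme that makes itaconate, a metabolite that dampens inflammatory signalling and can release the antioxidant regulator NRF2 from its inhibitor.

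Marker genes, most of them outside the rule, were used to check the label. Of 15 neutrophil markers S100a8, S100a9 and Csf3r belong to the rule, and the other 12 all had UMIs and stood above the other kept tendon cells. Irg1 and Hcar2 are among the 12. Both were far lower in the neutrophils of blood and bone marrow, as given below, so they say less about the cell type. Retnlg, which encodes a resistin-like granule protein, was at 17997 CPM (17791 to 18205) against 139.7 in all other kept cells, Cxcr2 was at 987 against 9.79, and Ly6g, the surface protein used to sort mouse neutrophils, was at 345 against 3.07. Markers of other cells were low. The 13 monocyte and macrophage markers summed to 523 CPM, of which Ly6c2 gave 214, against 7496 in the other cells. They include Csf1r, at 0 by the rule, and C1qa, C1qb and C1qc, which the rule held low. Part of that contrast was thus set by the rule. The 6 mesenchymal markers summed to 115, led by Col3a1 at 49.9, against 7167. The keratinocyte markers Krt5 and Krt14 summed to 85.0 against 2128, and the platelet markers to 46.8, nearly all Pf4, against 1628. Of the 6 dendritic markers Flt3, Xcr1 and Cd209a were at 0 and the rest summed to 60.4; Cd3e and Ncr1 of the T and NK markers were at 0, as were Prg2, Epx and Il5ra of the eosinophil markers and every B cell and erythroid marker in the files. The endothelial markers summed to 16.0 CPM, led by Pecam1, against 193 in the other kept cells. Against this pattern, the T and NK markers summed to 15.4 CPM, mostly Nkg7, above the 3.06 of the other kept cells. The eosinophil markers, with 4 UMIs, were also higher, at 2.46 against 1.36.

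Free RNA of the digest left a small trace. Collagen genes stood at 145 CPM in the tendon neutrophils and at 8837 in the whole library, so that the library's mean profile could make up 1.64% of the neutrophil UMIs if all of that collagen were free RNA. At that share it would supply 0.242% of the Cxcl2 level, 0.0530% of Irg1 and 0.438% of Thbs1, but 7.17% of Cxcl1, 10.0% of Ccl2, and for the genes of other cells 32.2% of Mt1, 56.5% of Pf4, 78.2% of Cxcl5 and 98.8% of Timp1. The levels of Mt1, Pf4, Cxcl5 and Timp1 therefore say little about the neutrophils. No doublets were removed: the caller Scrublet's automatic threshold did not work on this library (12 of 5629 barcodes), and among the 253 barcodes of highest score, 4.50% of the library, 3 were neutrophils by the rule. The tendon and blood libraries shared 6 barcodes, 1 of them among the cells that met the rule, and tendon and bone marrow shared 1.

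The edges of the rule lay in different places. Of the kept tendon cells 78 failed the S100 condition alone, and these were unlike the members, with Irg1 at 242 CPM and Retnlg at 333. The 60 cells that failed only for want of a Csf3r UMI, with a median of 2878.5 UMIs, and the 107 that failed only through a Csf1r UMI were closer to the members, with Irg1 at 1828 and 1881 CPM, Cxcl2 at 26758 and 15246, and Retnlg at 7074 and 10920, below the 17997 of the members. At the S100 limit itself, 14 members with a share of 2% to 3% had Cxcl2 at 55168 and Irg1 at 2814 CPM, and 15 cells with 1% to 2% that met the other conditions had 7098 and 1125.

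The most abundant transcripts after S100a9 (10.0% of UMIs) and S100a8 (8.12%) mixed housekeeping, granulocyte and cytokine genes. Gm42418, a locus that overlaps a ribosomal RNA repeat, took 7.75%, more than in blood (77472 against 50019 CPM). Fth1, the heavy chain of the iron store ferritin, took 2.78%, and Cxcl2, a chemokine that draws neutrophils through Cxcr2, took 1.79%, next to Retnlg at 1.80%. Srgn, the proteoglycan core of granules, Ifitm1, an interferon-induced membrane protein, Il1b, Slpi, an antiprotease, and Nfkbia, the inhibitor that binds NF-kB, were also among the 20 most abundant. Srgn was at 9211 CPM in the tendon, 2481 in blood and 555 in bone marrow, a step at each site, while Wfdc17, another antiprotease-like gene, was at 6408, 6353 and 347, and its ratio to blood was 0.01 (-0.02 to 0.05).

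Against blood neutrophils, 6156 genes had at least 20 UMIs over both groups. Of these 999 were at least 2-fold higher in the tendon (16.2%) and 811 at least 2-fold lower (13.2%), with a median log2 ratio of 0.01. S100a8 and S100a9 made up 18.1% of UMIs in the tendon cells and 32.3% in blood, and with both left out of the totals all ratios fell by 0.27 and the counts became 757 higher and 1230 lower. The gene lists below are read against 16.2% and 13.2%.

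**Figure D1:**
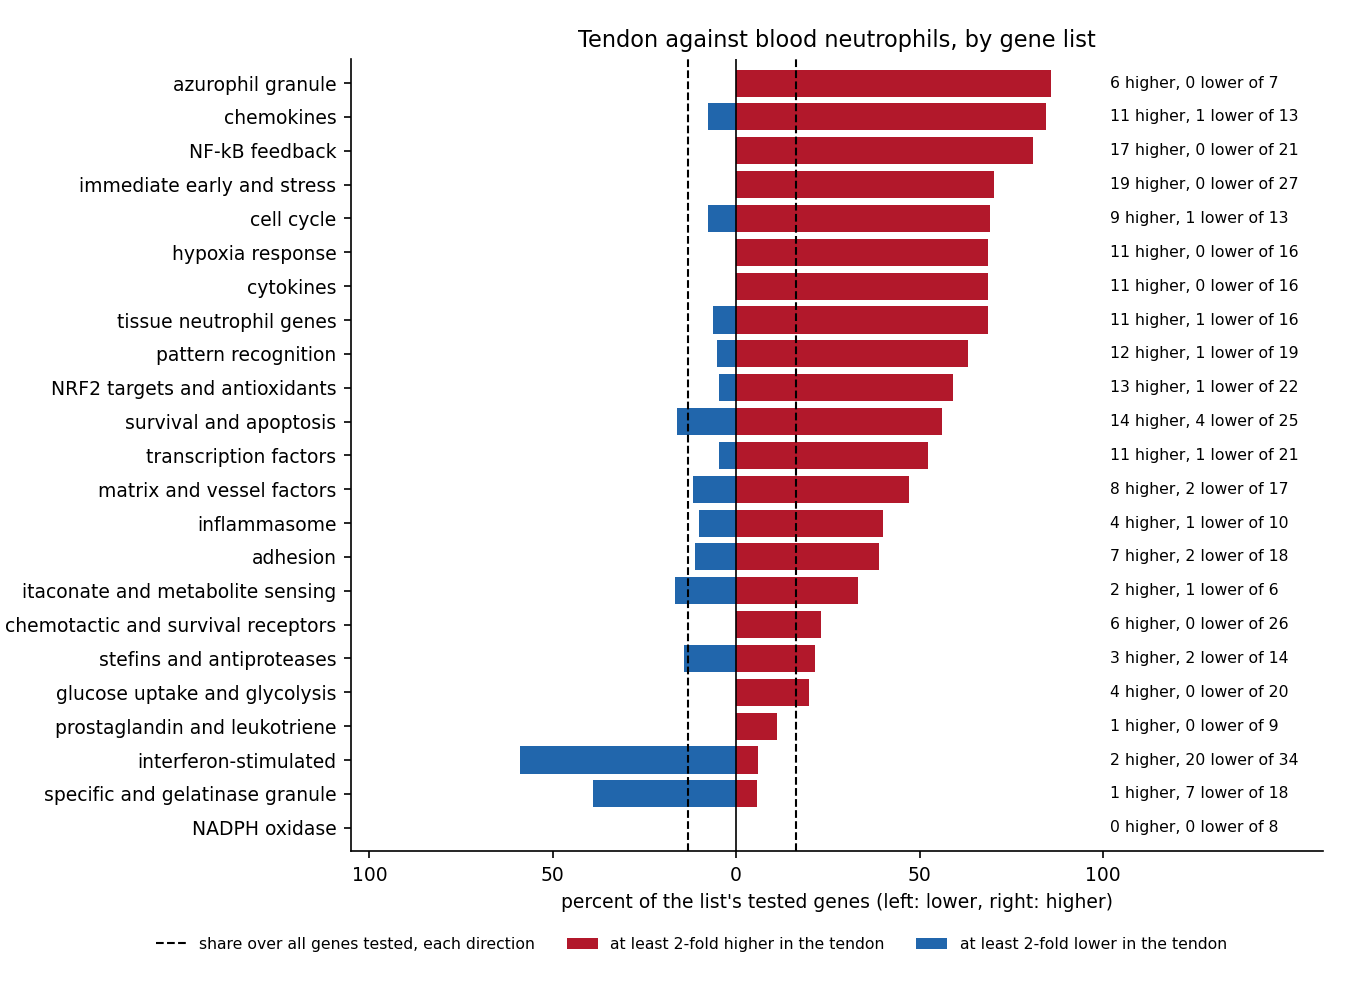
Share of each list's tested genes that were at least 2-fold higher (right) or lower (left) in tendon than in blood neutrophils, in percent, with the counts at the right and dashed lines at the shares over all 6156 genes. Chemokine, NF-kB feedback, cytokine and immediate early lists reach far past the line on the right, and only the interferon-stimulated and the specific and gelatinase granule lists reach far past it on the left.

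Chemokine genes had the largest median ratio to blood of the 23 lists. Of 13 tested, 11 were at least 2-fold higher and 1 lower, with a median log2 ratio of 5.13. Cxcl2 was at 17869.7 CPM (17665 to 18076) in the tendon, 46.9 in blood and 2.39 in bone marrow, and its ratio to blood was 8.57 (8.30 to 8.86). Cxcl3 and Cxcl1, which bind the same receptor Cxcr2, were at 958 and 158 CPM in the tendon and had 0 UMIs in both other groups. The ratios to blood were thus at least 9.56 for Cxcl3 and at least 6.96 for Cxcl1.

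The chemokines of the CC class, which draw monocytes and T cells, followed a mixed course. Ccl4 was at 1652 CPM against 2.11 in blood (5 UMIs) and Ccl3 at 995 against 1.69 (4 UMIs), with ratios of 9.61 (8.39 to 11.23) and 9.20 (7.84 to 11.08). Ccl2 reached 95.5 CPM, well below Ccl3, and Ccl9 85.0. Ccl6, a chemokine that myeloid cells carry at rest, was at 1231 CPM in the tendon and 1442 in blood, a ratio of -0.23 (-0.31 to -0.15). Ccl5, the T cell chemokine, had 0 UMIs in the tendon neutrophils and 76.9 CPM in those of blood, a log2 ratio of at most -5.38. With every blood cell weighted equally its mean was 48.1 CPM. Free RNA was allowed 3.86% of the blood neutrophils' UMIs, and its part in the Ccl5 level is not given here.

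The start regions of several of these genes held the same short run of letters. The 9 bases GGAATTTCC, of the kind that NF-kB binds, or their reverse complement GGAAATTCC, were searched on both strands in the 300 bases from 250 before to 50 after each RefSeq start (GRCm38.p6), a choice of letters made after these regions had been read. Of all 27025 genes with such a window 103 held them, 0.381%, and of the 12 chemokine genes of the list with a window 4 did, Cxcl1, Cxcl2, Cxcl3 and Cxcl10, or 33.3%. Irg1 was 1 of 9 genes of the itaconate list, and Nfkbia and Tnfaip3 were 2 of 18 in the NF-kB feedback list. Of the other lists, the cytokine list held 1 of 16 (Ifnb1), the adhesion list 1 of 12 (Icam1), the immediate early list 1 of 23 (Ier3), the interferon-stimulated list 2 of 31 (Gbp5 and again Cxcl10) and the matrix list 1 of 16 (Ctsl), and the remaining 15 lists held 0. The 120 bases before the start are shown for Cxcl1, Cxcl2, Cxcl3, Irg1, Nfkbia and Tnfaip3, read 5′ to 3′ on the gene's strand, with the matching letters in capitals. A match describes the letters and is no evidence of binding.
Cxcl1, chr5:90891125-90891244 (+), match 70 to 62 bases before the start: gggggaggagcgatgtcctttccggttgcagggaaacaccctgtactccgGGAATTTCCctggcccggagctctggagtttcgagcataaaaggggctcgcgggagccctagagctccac
Cxcl2, chr5:90903779-90903898 (+), match 96 to 88 bases before the start: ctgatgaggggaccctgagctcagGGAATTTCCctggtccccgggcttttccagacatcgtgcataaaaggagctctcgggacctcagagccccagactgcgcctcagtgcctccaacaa
Cxcl3, chr5:90785981-90786100 (+), match 72 to 64 bases before the start: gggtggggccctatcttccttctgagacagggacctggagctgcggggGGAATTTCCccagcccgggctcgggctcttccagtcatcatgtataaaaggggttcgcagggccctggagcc
Irg1 (RefSeq symbol Acod1), chr14:103046892-103047011 (+), match 85 to 77 bases before the start: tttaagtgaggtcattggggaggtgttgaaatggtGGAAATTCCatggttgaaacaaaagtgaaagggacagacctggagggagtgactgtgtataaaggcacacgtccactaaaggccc
Nfkbia, chr12:55492648-55492767 (-), match 29 to 21 bases before the start: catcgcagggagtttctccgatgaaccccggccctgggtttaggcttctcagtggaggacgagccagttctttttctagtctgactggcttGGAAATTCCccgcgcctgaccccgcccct
Tnfaip3 (1 of its 2 windows), chr10:19015411-19015530 (-), match 24 to 16 bases before the start: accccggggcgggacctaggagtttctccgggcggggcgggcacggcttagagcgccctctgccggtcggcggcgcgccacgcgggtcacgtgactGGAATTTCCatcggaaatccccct

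Cytokine genes were the next group, with 11 of 16 tested at least 2-fold higher than in blood and 0 lower, and a median log2 ratio of 2.68. Il1b, the fever cytokine that the inflammasome releases, was at 5757 CPM (5641 to 5875) in the tendon, 972 in blood and 11.3 in bone marrow, so blood already held far more than bone marrow, and the ratio of tendon to blood was 2.57 (2.50 to 2.63). Il1a, which acts on the same receptor when cells are damaged, was at 317 CPM in the tendon and had 0 UMIs in the others. Tnf was at 1000.3, 3.80 and 14.5 CPM, a ratio to blood of 8.04 (7.11 to 9.17).

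Inhibitors of interleukin-1 were higher as well. Il1rn, the soluble receptor antagonist, was at 479 CPM against 69.3 in blood, with a ratio of 2.79 (2.54 to 3.04), and Il1r2, the decoy receptor, at 2632 against 326, with 3.01 (2.90 to 3.13). Il23a, which encodes the p19 chain of interleukin-23, was at 105 CPM in the tendon with 0 UMIs in blood, and Csf1, the growth factor of macrophages, was at 132 against 29.2. Osm and Il15 did not differ from blood beyond counting error, at 0.22 (-0.20 to 0.64) and 0.04 (-0.45 to 0.51).

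The inflammasome list split. Nlrp3, the sensor protein, was at 1499 CPM in the tendon, 78.6 in blood and 5.27 in bone marrow, and its ratio to blood was 4.25 (4.04 to 4.48). Casp1, the protease that it activates, was at 10.5 CPM against 37.2, a ratio of -1.83 (-2.67 to -1.07). The adaptor Pycard and the pore former Gsdmd lay within 2-fold of blood, at 0.49 (0.09 to 0.89) and 0.10 (-0.37 to 0.56). In all, 4 of 10 genes were higher by 2-fold and 1 lower.

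**Figure D2:**
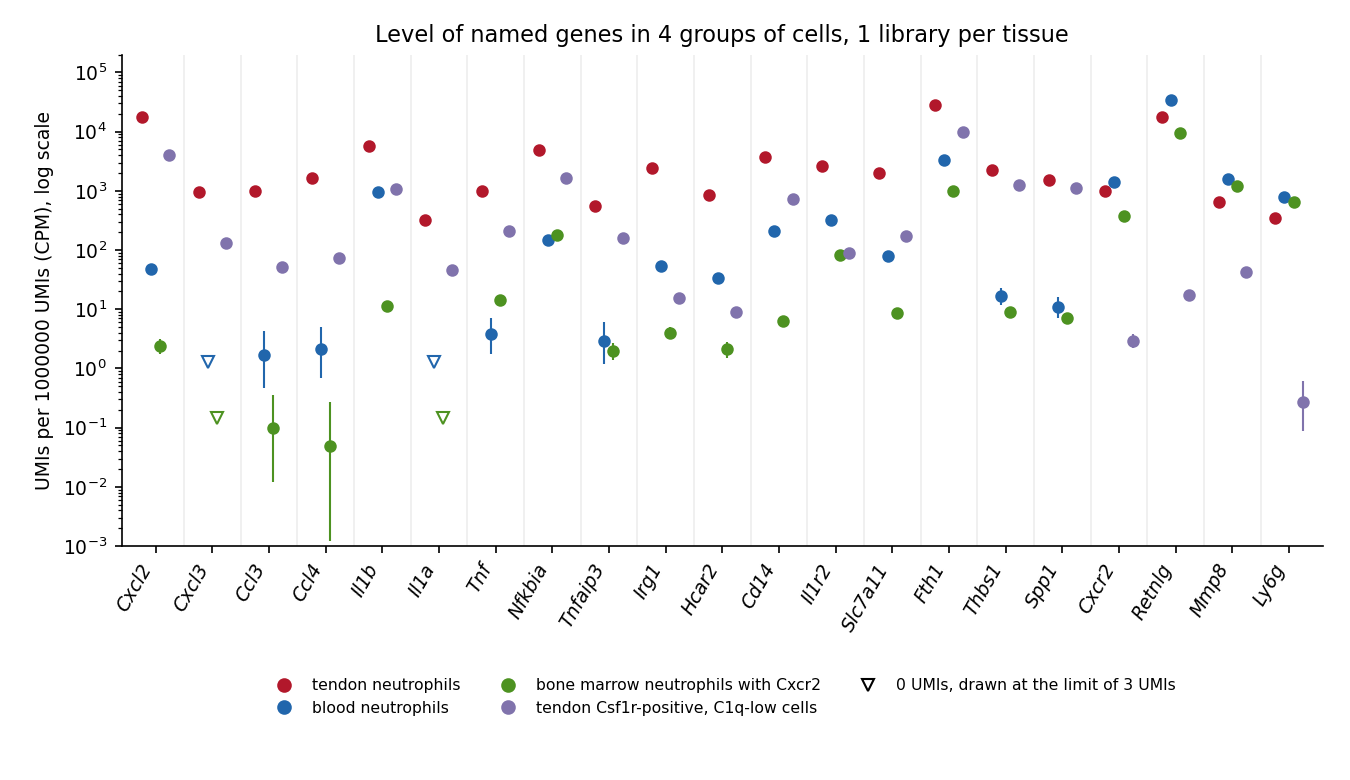
Levels of 21 named genes in UMIs per 1000000 UMIs (log axis) in tendon, blood and bone marrow neutrophils and in the Csf1r-positive, C1q-low cells of the tendon, with exact 95% Poisson bars and triangles at the limit of 3 UMIs where a group had 0. Cxcl2 stands at 17869.7 in the tendon neutrophils and 46.9 in blood, while Retnlg, Mmp8, Ly6g and Cxcr2 at the right are lower in the tendon than in blood.

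Genes that NF-kB induces to limit itself were mostly higher, with 17 of 21 at least 2-fold higher than in blood, 0 lower and a median log2 ratio of 2.32, and 13 higher without S100a8 and S100a9 in the totals. Nfkbia was at 4951 CPM in the tendon, 148 in blood and 179 in bone marrow, a ratio to blood of 5.07 (4.91 to 5.23). Tnfaip3, which encodes the ubiquitin-editing enzyme A20, was at 544, 2.96 and 1.95. Nfkbiz, a nuclear cofactor of NF-kB, was at 1104 against 61.7 in blood. Zc3h12a, an RNase that degrades cytokine mRNAs, and Traf1, an adaptor of TNF receptors, were also higher, at 3.42 (2.86 to 4.03) and 6.84 (5.47 to 8.73). Of the subunits themselves, Rela, Nfkb1 and Relb stood at 1.09 (0.64 to 1.56), 0.96 (0.65 to 1.27) and 1.17 (0.49 to 1.87), Rel at 2.32 (1.99 to 2.65) and Nfkb2 at 2.45 (1.72 to 3.24).

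Of the genes around itaconate, Irg1 and Hcar2 were high and the succinate dehydrogenase genes were not. Irg1 was at 2406 CPM (2332 to 2483) in the tendon, 54.5 in blood and 4.003 in bone marrow, with a ratio to blood of 5.46 (5.21 to 5.73). Hcar2, a receptor for niacin and ketone bodies that lowers inflammatory signalling, was at 865, 33.4 and 2.10 CPM, a ratio to blood of 4.69 (4.37 to 5.04). The succinate dehydrogenase genes Sdha and Sdhb, whose enzyme itaconate inhibits, were at 28.9 CPM against 39.7 in blood and 49.9 against 64.3. Both had intervals of the ratio that held 0. Idh1 was lower, at -1.23 (-2.21 to -0.35), but within 2-fold without the Csf1r and C1q conditions, at -0.67 (-1.16 to -0.19). The carriers and receptors Slc13a3, Slc13a5 and Oxgr1 had 0 UMIs.

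NRF2, the regulator that itaconate can activate, is encoded by Nfe2l2. This gene and many of a list of NRF2 targets and other antioxidant genes were higher in the tendon than in blood. A link of these levels to itaconate was not tested. Of 22 genes tested, 13 were at least 2-fold higher and 1 lower, with a median log2 ratio of 1.75. Beside the Csf1r-positive, C1q-low cells of the same digest, 7 of 25 were higher and 8 lower, with a median of -0.13. Over all genes of that comparison 9.27% were higher and 53.7% lower. Slc7a11, the cystine importer, was at 1989 CPM in the tendon, 80.3 in blood and 8.59 in bone marrow, with a ratio to blood of 4.63 (4.42 to 4.85). Fth1 was at 27823, 3288 and 989.5, a ratio of 3.08 (3.05 to 3.12). Sod2, the mitochondrial superoxide dismutase, was at 337 against 13.5 in blood. Srxn1 and Txnrd1, which restore oxidised peroxiredoxin and thioredoxin, stood at 5.30 (3.38 to 8.38) and 2.92 (2.51 to 3.35). Taldo1 and G6pdx, of the pentose phosphate pathway that supplies NADPH, were lower, at -0.61 (-0.70 to -0.53) and -1.60 (-1.94 to -1.27), and thioredoxin itself, Txn1, at -0.56 (-0.63 to -0.49).

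The NADPH oxidase list, the respiratory burst enzyme that uses this NADPH, had 0 of 8 genes past 2-fold in either direction, and 1 lower without S100a8 and S100a9 in the totals. Its membrane subunit Cybb was at 178 CPM against 249 in blood, and the cytosolic subunits Ncf1 and Ncf4 stood at -0.76 (-0.93 to -0.59) and -0.07 (-0.23 to 0.09).

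Most receptors lay within 2-fold of their blood level. Of 26 chemotactic and survival receptors tested, 6 were at least 2-fold higher and 0 lower, with a median of 0.19 that turned to -0.09 when S100a8 and S100a9 were left out of the totals. Ccrl2, an atypical receptor that holds chemerin at the cell surface, was at 636 CPM against 0.423 in blood, where it had 1 UMI, so its ratio of 10.56 (8.07 to 15.86) is known only roughly. Trem1, which amplifies inflammatory responses, was at 1125 against 135, and Tnfrsf1b, the second TNF receptor, at 248 against 55.8. Ptafr, the receptor for platelet-activating factor, and Il1rap, the shared chain of interleukin-1 receptors, stood at 2.06 (1.85 to 2.27) and 1.66 (1.47 to 1.85).

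Unlike Ptafr, the receptors Cxcr2, Cxcr4, Ltb4r1, Fpr1 and C5ar1 lay within 2-fold of blood, some lower and some higher. Cxcr2 was at 987 CPM in the tendon and 1400.01 in blood, a ratio of -0.50 (-0.59 to -0.42). Cxcr4, the marrow retention receptor, was at 128 and 117, and the leukotriene B4 receptor Ltb4r1 at 219.9 and 194, both with intervals that held 0. Fpr1, the formyl peptide receptor, and C5ar1, the complement C5a receptor, were higher by less than 2-fold, at 0.99 (0.82 to 1.16) and 0.72 (0.57 to 0.86).

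Pattern recognition genes were higher in 12 of 19 and lower in 1, with a median of 1.12, and without S100a8 and S100a9 in the totals 7 rather than 12 were higher. Cd14, the lipopolysaccharide co-receptor, was at 3667 CPM in the tendon, 207 in blood and 6.44 in bone marrow, a ratio to blood of 4.15 (4.01 to 4.28). The C-type lectins Clec4d and Clec4e, which sense glycolipids and dead cells, were at 2331 against 512 and 2067 against 393. Tlr2 and Tlr4 stood at 2.24 (1.98 to 2.51) and 1.02 (0.61 to 1.43), whereas Ly96, the partner of Tlr4, was at 0.01 (-0.57 to 0.58) and the adaptor Myd88 at -0.46 (-0.75 to -0.18).

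The adhesion list was uneven, with 7 of 18 higher, 2 lower and a median of 0.10 that turned to -0.17, with 4 higher, without S100a8 and S100a9 in the totals. Icam1, an endothelial adhesion molecule that activated neutrophils also make, was at 156 CPM with 1 UMI in blood. The integrin genes Itgal and Itga4 were lower, at -0.58 (-0.79 to -0.38) and -1.02 (-1.37 to -0.67), and Itgax and Itgb1 higher, at 1.07 (0.38 to 1.76) and 1.75 (1.14 to 2.40). Plaur, the urokinase receptor, and the tetraspanin Cd9 were higher by 1.86 and 1.23 on the log2 scale.

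Genes of low oxygen were higher than in blood in 11 of 16 and lower in 0, with a median of 1.48. They were not particular to the neutrophils of the tendon. The list summed to 1530 CPM in them and to 1859 in the Csf1r-positive, C1q-low cells of the same digest. Beside those cells 3 of 18 were higher and 8 lower, with 9.27% and 53.7% over all genes. Hilpda, a lipid droplet protein induced by hypoxia, was at 360.3 CPM against 0.845 in blood (2 UMIs), a ratio of 8.74 (6.88 to 11.78). Mif, a cytokine of the same response, was at 273 against 33.8, and Vegfa, the vessel growth factor, at 30.8 against 4.23. Hif1a, which encodes a subunit of the hypoxia-inducible transcription factor, was higher by less than 2-fold, at 0.72 (0.50 to 0.95).

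Glycolysis did not follow as a whole. Of 20 genes tested 4 were at least 2-fold higher and 0 lower, and the median was -0.07; without S100a8 and S100a9 in the totals 3 were higher and 3 lower, with a median of -0.35. The 4 were the glucose transporter Slc2a1, the phosphofructokinase Pfkp, its activator Pfkfb3 and the lactate exporter Slc16a3, at 1.22 (0.87 to 1.57), 1.85 (1.39 to 2.33), 1.56 (1.07 to 2.06) and 1.39 (1.26 to 1.52). Gapdh and Ldha were close to their blood level, at 1397 against 1509 and 293 against 302 CPM. The neutrophil glucose transporter Slc2a3 and the hexokinases Hk2 and Hk3 were lower by less than 2-fold, at -0.82 (-1.03 to -0.61), -0.96 (-1.54 to -0.42) and -0.69 (-1.02 to -0.37).

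Immediate early and stress genes were higher in 19 of 27 and lower in 0, with a median of 1.94. Egr1 was at 389 CPM in the tendon, 13.9 in blood and 0.586 in bone marrow, and Ier3, a survival gene of this class, at 1218, 60.02 and 24.8. Fosb, Atf3 and Nr4a1 stood at 4.41 (3.82 to 5.05), 4.29 (3.51 to 5.19) and 5.17 (4.01 to 6.64). Fos was the exception, at 184 CPM in the tendon and 277 in blood, and Dusp1 and Ier2 differed little, at 0.25 (0.15 to 0.36) and 0.04 (-0.19 to 0.27). Of the chaperones, Hspa5 of the endoplasmic reticulum and Hsp90aa1 were higher, at 2.37 (2.15 to 2.60) and 2.44 (2.14 to 2.75). In the Csf1r-positive cells of the same digest, Egr1 was at 254 CPM, Ier3 at 1814 and Fos at 738. Only the tendon was digested warm, and the digestion and the site cannot be told apart in the ratios to blood.

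Many survival and death genes were higher than in blood. Of 25 tested, 14 were at least 2-fold higher, far past the 16.2% of all genes, with a median of 1.24. Another 4 were lower, a share near the 13.2% of all genes. Bcl2a1b, of an NF-kB-induced family of survival proteins, was at 292 CPM against 2.11 in blood, although its near-identical copies share reads and the split between them is uncertain. Bcl2l11, which encodes the death-promoting protein BIM, was at 496 against 24.9, a ratio of 4.32 (3.93 to 4.72). Mcl1, on which neutrophil life depends, was the most abundant of the list at 2705 against 1435, and Gadd45b, a stress gene, was at 995 against 35.5. The genes of the list that were lower were Trp53inp1, Bid, Bbc3 and Birc2, at -2.02 (-2.46 to -1.62), -1.27 (-1.87 to -0.70), -1.89 (-3.62 to -0.49) and -1.18 (-2.20 to -0.26).

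Among transcription factors 11 of 21 were higher and 1 lower, with a median of 1.07. Cebpb, the factor of emergency granulopoiesis and of inflammatory genes, was at 2916 CPM in the tendon, 831 in blood and 220.1 in bone marrow. Cebpe, which drives specific granule genes in precursors, ran the other way at 35.7, 55.4 and 459.7. Without 10 cells rich in Ltf, Camp and Ngp, described below, its tendon level was 22.4 CPM, more than 2-fold below blood, where no cells were left out. Bhlhe40 and Maff stood at 5.35 (4.28 to 6.68) and 5.49 (4.09 to 7.38), and Spi1, the myeloid master factor PU.1, at -0.59 (-0.71 to -0.48).

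Genes for matrix and vessel factors were higher in 8 of 17 and lower in 2. Thbs1, which encodes the matrix protein thrombospondin-1 that activates TGF-beta, was at 2258 CPM in the tendon, 16.5 in blood and 8.98 in bone marrow, a ratio to blood of 7.10 (6.64 to 7.59). Spp1, which encodes osteopontin, a bone matrix protein and cytokine, was at 1528, 10.99 and 7.22, a ratio of 7.12 (6.56 to 7.74). The cathepsins Ctsb, Ctsl and Ctsz were higher, at 2.53 (2.31 to 2.76), 2.88 (2.46 to 3.33) and 2.36 (2.05 to 2.68). Tgfb1 was at 65.9 CPM against 33.4 and missed 2-fold. Anxa1, which ends neutrophil recruitment, was lower at 859 against 2052. Ptgs2, the inducible cyclooxygenase, was the 1 gene of 9 in the prostaglandin and leukotriene list past 2-fold, at 384 against 8.88 CPM, and Alox5 and Alox5ap, which start leukotriene synthesis, stood at -0.55 (-0.87 to -0.25) and -0.27 (-0.34 to -0.21).

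The list of genes described in tissue neutrophils had 11 of 16 higher and 1, Ly6g, lower. Cd274, the checkpoint ligand PD-L1, was at 66.5 CPM against 6.76 in blood, and Nos2, the inducible nitric oxide synthase, at 66.5 against 5.50. Ninj1, which ruptures the membrane of dying cells, stood at 2.49 (2.19 to 2.80). Siglecf, a marker of long-lived tissue neutrophils, was near absent, with 12 UMIs, 7.39 CPM.

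Of the granule genes more were lower in the tendon than higher. Of 18 genes of specific and gelatinase granules 7 were at least 2-fold lower and 1 higher, with a median of -0.83. Mmp8, neutrophil collagenase, was at 655 CPM in the tendon, 1553 in blood and 1186 in bone marrow, a ratio to blood of -1.24 (-1.34 to -1.15). Retnlg was at 17997, 33993 and 9587, a ratio of -0.92 (-0.94 to -0.90). Lcn2, the iron-carrier binding protein, Lyz2, lysozyme, and Cd177 stood at -1.11 (-1.16 to -1.07), -1.48 (-1.54 to -1.43) and -1.42 (-1.63 to -1.22), and Mmp9, gelatinase B, differed less, at -0.44 (-0.52 to -0.37). Lyz2 was within 2-fold without the Csf1r and C1q conditions, at -0.88 (-0.91 to -0.85). Adam8 was the 1 gene higher, at 1.44 (1.28 to 1.60).

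Interferon-stimulated genes leaned towards blood, with 20 of 34 at least 2-fold lower in the tendon and 2 higher, and a median of -1.23. Ifit1, Rsad2 and Oasl2, antiviral effectors, were at 4.31 against 38.5, 39.4 against 107 and 85.6 against 207 CPM. Ifi27l2a was at 257 against 655. Isg15, the ubiquitin-like modifier, went the other way by less than 2-fold, at 0.55 (0.35 to 0.76), as did Ifitm1 at 0.66 (0.62 to 0.70). The 2 genes past 2-fold upwards were Irf1, at 1.09 (0.85 to 1.33), and Cxcl10, which NF-kB also induces, with 29 UMIs in the tendon and 0 in blood; Irf1 was below 2-fold without S100a8 and S100a9 in the totals.

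Azurophil and cell cycle genes were higher in the tendon sum, but through a few cells. Of 7 azurophil genes 6 were at least 2-fold higher than in blood, with a median of 1.95, and Elane was at 128 CPM against 33.0, yet 1 cell of 29546 UMIs, the deepest of the 365, held 644 of the 662 UMIs of Mpo, Elane and Prtn3, 97.3%. After thinning each cell to 1000 UMIs, which kept 362 of the 365, 10 cells had 10 or more UMIs of the precursor genes Ltf, Camp and Ngp, a limit set after the counts were seen. Those 10 cells, with a median of 11862.5 UMIs against 3647.5 in the other 352, held 99.7% of the Camp UMIs, 99.8% of Ltf, 91.4% of Ngp, genes that chose them, and 84.8% of the proliferation marker Mki67, which did not. Without them 1 of 4 azurophil genes was higher and 3 lower, with a median of -3.10. Of 8 cell cycle genes 0 were higher and 4 lower, against 9 higher and 1 lower of 13 with them. For granule genes 11 rather than 7 were lower. No such cells were taken out of blood. With every cell weighted equally, Camp had a mean of 1644 CPM in blood and 614 in the tendon, and Ltf 601 and 176. Leaving the cells out of the tendon alone lowers these lists by design, so the turn does not compare like cells.

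These 10 cells also stood apart in the inflammatory genes. Cxcl2 was at 1154 CPM in them and 19552 in the other cells, Il1b at 455 and 6288, and Irg1 at 251 and 2622. Cxcr2 was at 299 and 1054, and Lcn2 at 11747 and 2469. Camp and Ltf were read in few of the tendon neutrophils, and Ngp in more: 3.31% had a Camp UMI after thinning, 2.49% an Ltf UMI and 10.8% an Ngp UMI.

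Ranked by size of ratio among genes with at least 100 UMIs over both groups and found in at least 10% of the cells of the higher group, the 15 genes furthest above blood were Ccrl2, Ccl4, Cxcl3, Cdkn1a, Ccl3, Hilpda, Cxcl2, Icam1, Tnf, Il1a, Tnfaip3, Spp1, Bcl2a1b, Thbs1 and Cxcl1. Cxcl3, Il1a and Cxcl1 had 0 UMIs in blood and were ranked by their lower bounds, so that their places are the lowest they could take. Cdkn1a, which encodes the cell cycle inhibitor p21, was the member not on any list, at 261 CPM with 1 UMI in blood. Several of these rest on 5 or fewer blood UMIs, and dropping the Csf1r and C1q conditions in every library moved Ccrl2 from 10.56 to 7.84, Icam1 from 8.53 to 5.61, Cdkn1a from 9.27 to 7.21, Bcl2a1b from 7.11 to 5.72, Hilpda from 8.74 to 7.79 and Ccl4 from 9.61 to 8.76. With every cell weighted equally Ccl3 stood at 10.22, Tnf at 8.98 and Thbs1 at 7.79. The largest ratios downwards were smaller. Asb7, a ubiquitin ligase subunit, was at 9.86 CPM against 96.8 in blood, a ratio of -3.30 (-4.13 to -2.57), and Xpc, a sensor of DNA damage, at 23.4 against 163. Tsc22d3, a gene induced by glucocorticoids, was at 73.9 against 422, and Slc40a1, the iron exporter ferroportin, at 66.5 against 328. The other 11 of the 15 lay between -2.99 and -2.26.

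The share of cells with a transcript gave the same order of sites. Cells were first thinned to 1000 UMIs, because the groups differed in depth (medians 3670, 8799.5 and 21850.5 UMIs, and 31806 in the 407 tendon cells with at least 1% collagen UMIs, which stand for the background). Cxcl2 was found in 96.1% (93.6% to 97.9%) of tendon neutrophils (98.1% before thinning), 2.55% of those of blood and 0.242% of those of bone marrow, and in 19.8% of the collagen cells, which can make it themselves. Irg1 was found in 78.7% (74.1% to 82.8%) (91.8% before thinning) of the tendon neutrophils, 7.23% of blood (32.8% before) and 0.726% of bone marrow, and in 0 of 405 collagen cells, which by the limit of 3 counts used for zeros allows a share of cells with a UMI of up to 0.741% (the exact interval reaches 0.907%). Hcar2 was found in 51.9% (46.7% to 57.2%) and Tnf in 48.9% (43.6% to 54.2%) of the tendon neutrophils, with 0% and 0.247% in the collagen cells. These genes were thus read in most or many of the cells and not in a rare few.

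**Figure D3:**
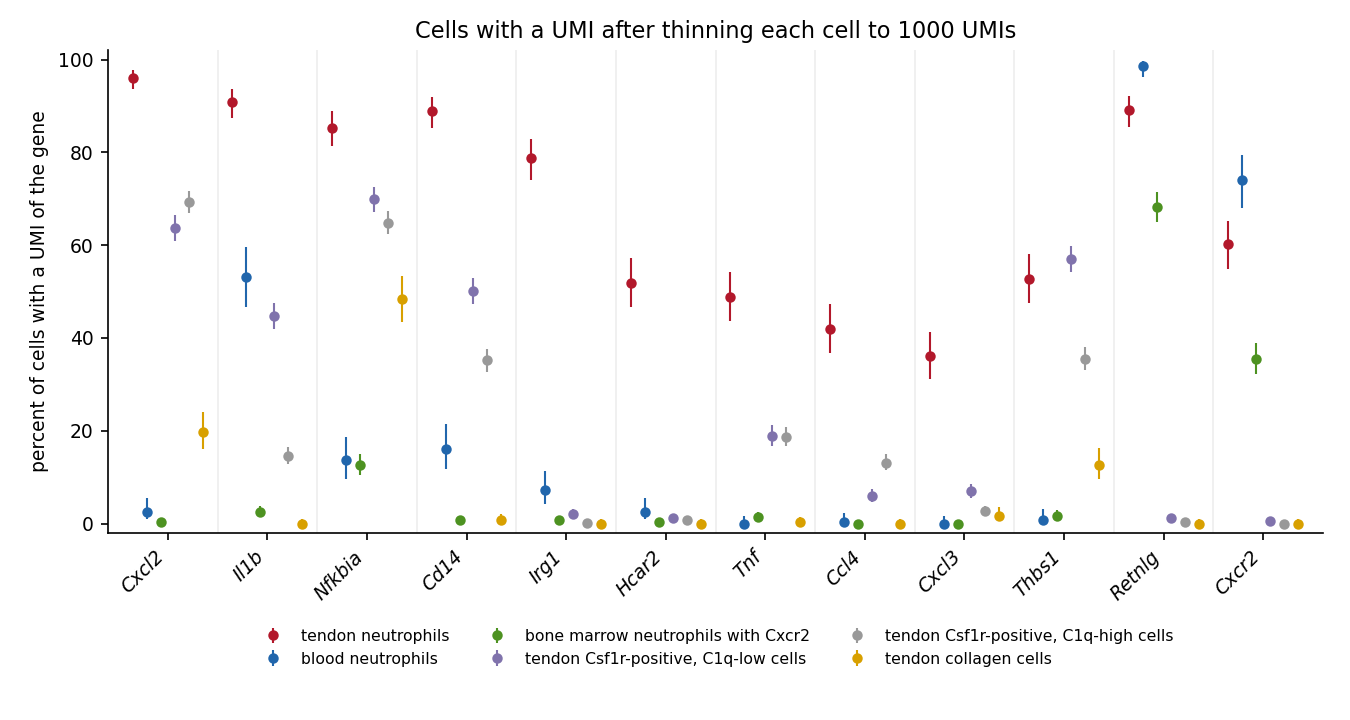
Percent of cells with at least 1 UMI of each gene after every cell was thinned to 1000 UMIs, with exact 95% intervals, in the neutrophils of 3 sites and in 3 other groups of tendon cells. Irg1 was found in 78.7% of the tendon neutrophils and Hcar2 in 51.9%, while every other group stayed below 8% for both.

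Against the bone marrow cells with Cxcr2, 9743 genes were tested, of which 1578 were at least 2-fold higher in the tendon (16.2%) and 3137 lower (32.2%), with a median log2 ratio of -0.43. Scaling by the median of ratios, which sets that median to 0, gave 2237 higher and 2058 lower. The 830 bone marrow cells still held immature ones, with the azurophil protease gene Elane at 1178 CPM, so a stricter group of 321 cells with Cxcr2 at 5 or more UMIs per 10000, chosen after the counts were seen, is given beside it; Elane was at 3.19 CPM there, and 1126 rather than 3137 genes were lower in the tendon.

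All 12 chemokine genes tested were at least 2-fold higher than in bone marrow, with a median log2 ratio of 8.95, and 14 of 17 cytokine genes were higher and 2 lower. NF-kB feedback genes were higher in 20 of 21 and lower in 0, and immediate early genes in 23 of 28. Cxcl2 stood at 12.87 (12.46 to 13.30) against the 830 cells and at 11.04 against the 321, Irg1 at 9.23 (8.92 to 9.57) and 7.24, and Il1b at 8.99 (8.80 to 9.18) and 6.91. For these 3 genes the size of the ratio thus depended on which bone marrow cells were taken, and the direction did not.

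Most chemotactic and survival receptors lay within 2-fold of blood, and many stood above bone marrow. Of 26 tested, 20 were at least 2-fold higher in the tendon than in bone marrow and 0 lower. In blood 20 were higher than in bone marrow and 1 lower. Ccr1, a receptor for Ccl3, was at 869.7 CPM in the tendon, 501 in blood and 139.9 in bone marrow. Other lists near their blood level differed in this. Of 15 stefin and antiprotease genes 10 were higher in the tendon than in bone marrow and 2 lower. Of 20 glycolysis genes 5 were higher and 1 lower, and of 9 NADPH oxidase genes 1 was higher and 3 lower. Interferon-stimulated genes, of which 20 of 34 were at least 2-fold lower than in blood, were higher than in bone marrow in 16 and lower in 6. Ifitm1, which was not among those lower than in blood, was at 6961, 4413 and 248 CPM.

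Cell cycle and granule genes were lower than in bone marrow, as 15 of 16 and 10 of 18 genes, with 0 and 2 higher. Camp was at 2496 CPM in the tendon and 30932 in bone marrow, and Ltf at 555 and 7116. Nearly all of these tendon UMIs lay in the 10 cells chosen by these genes. In the other 352 cells Camp was at 7.46 CPM and Ltf at 1.36. Retnlg was at 0.91 (0.89 to 0.93) against the 830 cells, but at -0.89 against the 321, so its direction turned with the choice. The 10 genes furthest below bone marrow were Ica1, Hist1h2af, Hist1h4c, Sgol1, F730016J06Rik, Hist1h3e, Hist1h2ab, Knstrn, Hist1h3i and Ptgr1, between -5.73 and -4.95; most encode histones or parts of the mitotic spindle, and 5 of them turned direction against the 321 cells, with intervals that held 0.

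Within the tendon library the neutrophils were set beside 1168 cells with a Csf1r UMI and C1q below 10 per 10000, which had a median of 11480 UMIs. These cells carried mesenchymal markers at 5790 CPM and keratinocyte markers at 1267 beside their monocyte genes, and are named by their rule and not by a cell type. Both groups went through the same digestion and library. Of 12452 genes tested 1154 were at least 2-fold higher in the neutrophils (9.27%) and 6686 lower (53.7%), with a median of -1.17. Without S100a8 and S100a9 in the totals the median was -0.88, and under the median of ratios 3015 were higher and 3394 lower. The Csf1r, C1q and S100 conditions separate the groups by design.

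Several inflammatory genes were abundant in both groups and others were far higher in the neutrophils. Thbs1 was at 2258 CPM in the neutrophils and 1254 in the Csf1r-positive cells, Spp1 at 1528 and 1097, and Ptgs2 at 384 and 356. All were within 2-fold with totals of all UMIs. Scaling by the median of ratios raised every log2 ratio of this comparison by 1.17, which takes these genes past 2-fold. Cxcl2 was at 17869.7 and 4066, and Nfkbia at 4951 and 1628. Irg1 and Hcar2 were far higher in the neutrophils, at 2406 and 15.6 CPM and at 865 and 8.82, with ratios of 7.27 (7.10 to 7.45) and 6.61 (6.38 to 6.86). Il1r2 and Slc7a11 stood at 4.90 (4.82 to 4.98) and 3.54 (3.47 to 3.62), and Nos2 and Il23a at 4.24 (3.78 to 4.70) and 4.59 (4.20 to 4.98).

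The chemokine list ran in both directions here. Of 17 genes 4 were at least 2-fold higher in the neutrophils and 11 lower, beside 9.27% and 53.7% over all genes, with a median of -2.25. Under the median of ratios 5 were higher and 8 lower, with a median of -0.98. The 4 higher were Cxcl2, Cxcl3, Ccl3 and Ccl4, at 2.14 (2.12 to 2.16), 2.88 (2.78 to 2.97), 4.28 (4.17 to 4.40) and 4.51 (4.41 to 4.60). Cxcl1 and Ccl2, which fibroblasts and macrophages make, were lower, at 158 against 748 and 95.5 against 470.5 CPM. Of 20 granule genes 15 were higher and 4 lower, and of 30 receptors 18 were higher and 5 lower. With 967 of the 1168 cells that had the leukocyte gene Ptprc and little collagen, mesenchymal markers were at 61.5 CPM, and Cxcl2 was at 5876, Irg1 at 23.1 and Il1b at 1598 CPM.

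By cell number the neutrophils were 7.33% of the kept tendon cells, and by RNA 1.83% of their UMIs, yet they held much larger parts of single transcripts. They held 57.0% (55.8% to 58.2%) of the Irg1 UMIs in those kept cells, 50.6% (48.8% to 52.5%) of Hcar2 and 43.7% (42.7% to 44.7%) of Il1r2. Retnlg and Cxcr2, which mark the cell type, were at 70.5% and 65.2%. The 107 cells that missed the rule only through a Csf1r UMI and the 60 without a Csf3r UMI count among the rest, so their UMIs are in the total and not in the neutrophils' part. Il1b, Il1a and Ccl4 were held to 20.8%, 20.9% and 22.9%, Tnf to 12.9% and Cxcl2 to 12.3%, and of Cxcl1 and Ccl2 the neutrophils held only 0.413% and 0.294%.

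**Figure D4:**
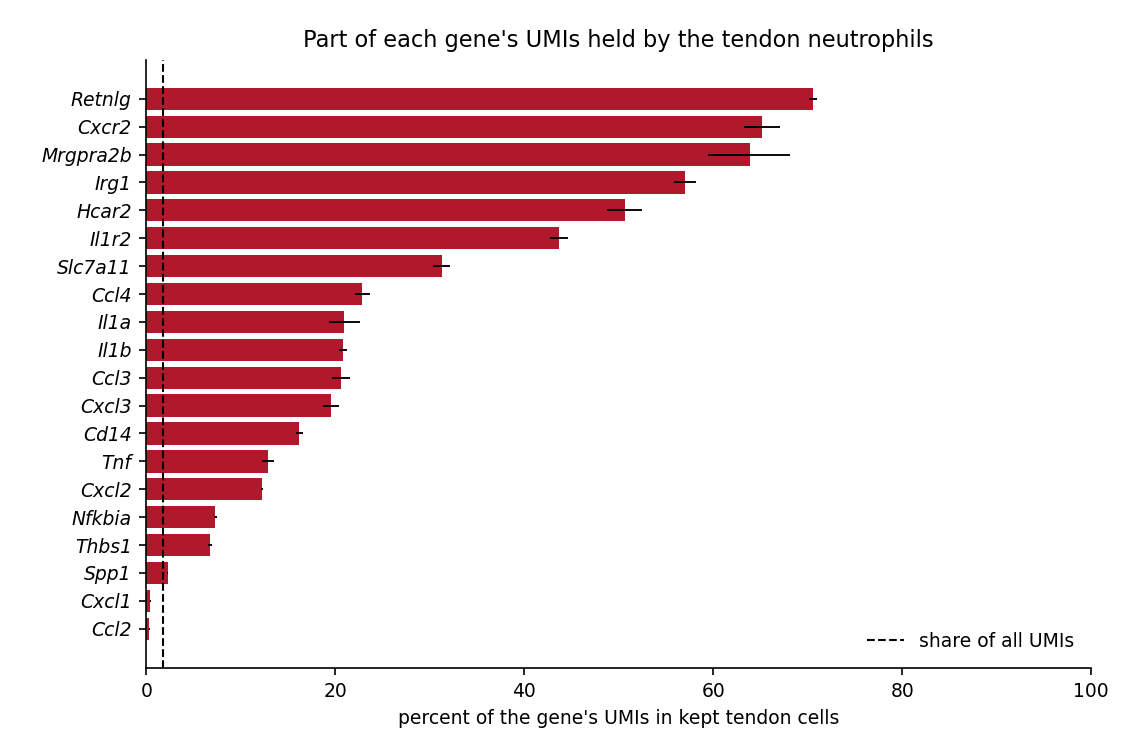
Percent of each gene's UMIs in the 4978 kept tendon cells that lay in the 365 neutrophils, with exact 95% intervals and a dashed line at their 1.83% of all UMIs. Retnlg, Cxcr2, Irg1 and Hcar2 stand above 50%, Cxcl2 at 12.3%, and Cxcl1 and Ccl2 below the line.

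The tendon neutrophils varied widely among themselves. After thinning to 1000 UMIs the median cell had 13 UMIs of Cxcl2 with quartiles of 6 and 25.8, and the highest had 159 of its 1000. Retnlg had a median of 10 and quartiles of 2 and 23. Irg1 had a median of 2, quartiles of 1 and 4 and a highest value of 11.

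Across the 362 thinned cells Cxcl2 went together with several inflammatory genes, and other pairs were weakly related. Spearman's rho was 0.65 for Cxcl2 and Nfkbia, 0.56 for Cxcl2 and Il1b, 0.45 for Cxcl2 and Tnf, and 0.32 for Cxcl2 and Irg1. With Retnlg it was -0.41 for Cxcl2 and -0.43 for Nfkbia, but -0.15 for Irg1, -0.08 for Ccl4 and 0.05 for Cd14. Rank correlation was also weak for Irg1 and Ccl4 at 0.09, for Il1b and Ccl4 at 0.13 and for Cxcl2 and Thbs1 at -0.02. Gm42418, the locus that overlaps a ribosomal RNA repeat, moved with the same genes. Its rho was 0.24 with Cxcl2, 0.25 with Nfkbia and -0.36 with Retnlg, but -0.10 with Cd14. The cells share 1 library and their values share the sum of 1000, so these are descriptions.

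**Figure D5:**
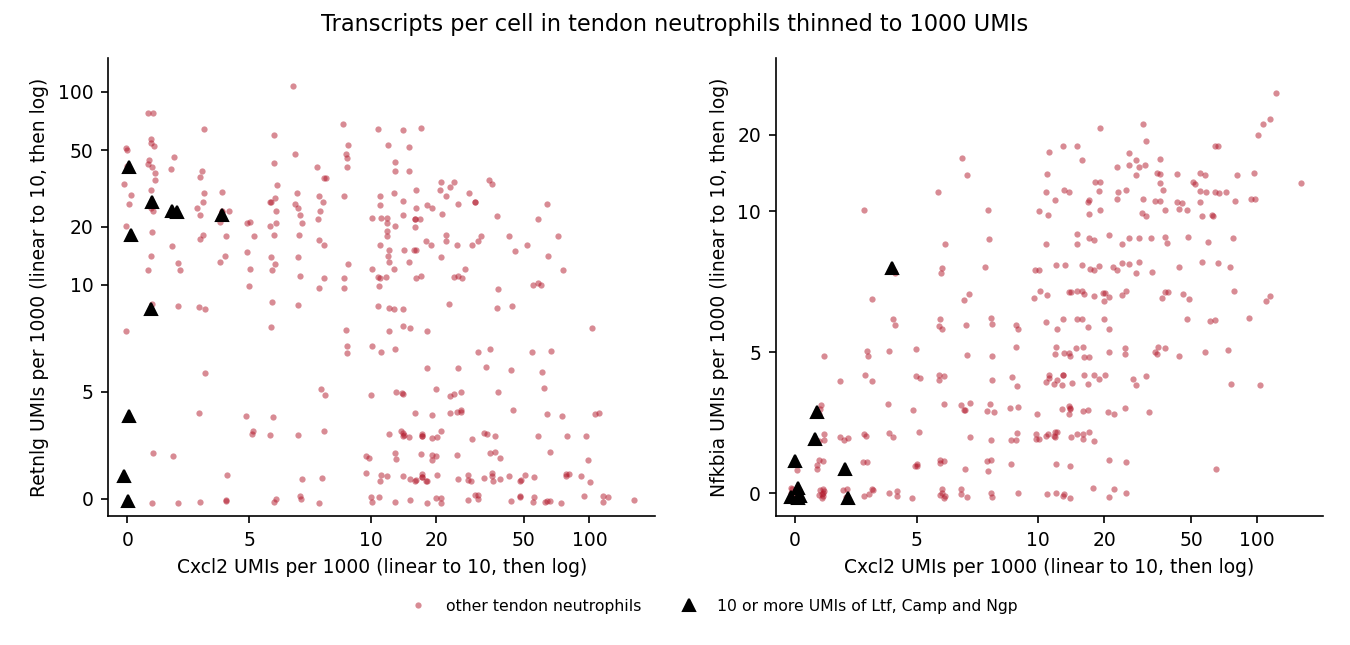
UMIs per cell of Cxcl2 (horizontal) against Retnlg (left) and Nfkbia (right) in 362 tendon neutrophils thinned to 1000 UMIs, on axes that are linear to 10 and logarithmic beyond, with triangles for the 10 cells with 10 or more UMIs of Ltf, Camp and Ngp and points shifted slightly so that they do not overlap. Cells rich in Cxcl2 hold more Nfkbia (rho 0.65) and less Retnlg (rho -0.41), and the triangles lie at the low end of Cxcl2.

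Depth moved with this pattern. In the shallowest, middle and deepest cells, with medians of 2494.5, 3683 and 6293 UMIs, Cxcl2 was at 28837, 22056 and 12175 CPM and Nfkbia at 7659, 5790.4 and 3645. Irg1 was at 3255, 3110.1 and 1769.9, and Retnlg was ordered the other way, at 8053, 12237 and 24175. Spearman's correlation with the UMIs per cell before thinning was -0.28 for Cxcl2, 0.51 for Retnlg and -0.54 for Gm42418. The part of depth in the relation of Cxcl2 to Retnlg was not tested.

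The cells were also divided by Cxcr2 and by interferon-stimulated genes. The 218 cells with a Cxcr2 UMI after thinning and the 144 without had Irg1 at 2498 and 2282 CPM and Cxcl2 at 17507 and 18389, whereas Mmp8 was at 795 and 463. Precursor transcripts lay mostly on the side without Cxcr2, with Camp at 121 and 5741 CPM and Ltf at 59.9 and 1231, and nearly all of these UMIs lay in the 10 cells described above. Of the 362 cells 349 had at least 3 UMIs of interferon-stimulated genes, and 101 had as many with the abundant Ifitm genes left out, a choice made after the counts were seen. Isg15 was at 648 CPM in those and 79.3 in the other 261, Rsad2 at 124 and 6.04, and both genes entered the division. Camp was at 189 CPM in the interferon-rich cells and 3419.5 in the others, again carried by the 10 cells. Irg1 was nearly equal between these cells, at 2616 and 2324, and Ccl3 was lower in the interferon-rich ones, at 644 against 1136 CPM, a log2 ratio of -0.82 (-1.01 to -0.64).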

How the data were processed

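UMI counts per gene and barcode were deposited by the authors for bone marrow, blood and tendon injury libraries (10x 3' v3), aligned to mm10 per the labels by Cell Ranger, whose version in the headers is 5.0.1; they are raw counts. Counts were summed over the cells meeting the rule (Python 3.11.15, numpy 2.4.6, scipy 1.17.1, pandas 2.3.3) and scaled to CPM; the tests of the study were not repeated. Genes with at least 20 UMIs over both groups were compared, and a 2-fold difference was counted. Cells were thinned to 1000 UMIs with seed 11. Scrublet in scanpy 1.11.5 scored doublets.

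Genes were named from 23 lists, as the 15 (blood) or 10 (other groups) with the largest ratio each way among those with 100 UMIs and in 10% of the cells of the higher group, or as the 20 most abundant. The members and lists were chosen with earlier results of these data known. Of the listed symbols 8 were not in the files: Acod1 (present as Irg1), Azu1, Chi3l3, Expi, Mx2, Cebpd, Clec7a and Lilrb4. Promoter sequence was taken from RefSeq, GRCm38.p6. The ratios, intervals and thinning were tested on simulated counts that held counting error only, so spread between cells was not part of that test. Alternatives covered the rule, doublets, scaling, cell weighting, free RNA, count minimum, fold and thinning depth. Some genes of the lists are counted but not reported by name here.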

Additional observations from a re-analysis of the deposited data

How the results depend on the processing

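With 1 library per tissue the spread between animals is unknown, Ficoll and digestion go with the site, and the tendon neutrophils were the shallowest group, so that low transcripts are hard to see in single cells. No paired analysis was possible because each tissue gave 1 library with no replicate number. The rule's alternatives gave 299 to 479 cells. Counts of genes at least 2-fold higher and lower than in blood (999 and 811) became 446 and 307 with at least 100 UMIs, 2125 and 1523 with at least 1 UMI, and 403 and 144 at 4-fold, and 1230 were lower without S100a8 and S100a9 in the totals. Against bone marrow (1578 and 3137) they were 776 and 1157 at 4-fold, 3449 were higher with at least 1 UMI, 2058 lower under the median of ratios, and 1126 lower against the 321 cells richer in Cxcr2. Against the Csf1r-positive cells (1154 and 6686) they were 535 and 4025 at 4-fold, 1808 were higher with at least 1 UMI, and the median of ratios gave 3015 and 3394. The share of cells with Irg1 (78.7%) was 60.5% at 500 UMIs and 88.3% at 2000. Of 1980 log2 ratios to blood, for 165 named genes, 3 that lay past 2-fold changed sign: Elane, at 1.95, was at most at -3.95 with at least 2 Csf3r UMIs and at most at -4.02 without the 10 cells rich in Ltf, Camp and Ngp, with 0 UMIs left in the tendon both times, and Mki67 was at -0.81 without these. Of 266 ratios to bone marrow 5 did so, all against the 321 cells: Hist1h2af and Hist1h2ab to 1.54, Hist1h3e to 3.12, Knstrn to 2.54 and Hist1h3i to 0.95, each with an interval that held 0. None of 238 ratios to the Csf1r-positive cells that lay past 2-fold did. Ratios within 2-fold changed sign 29 times against blood, in 13 genes, and otherwise for Retnlg against bone marrow and for Ptgs2 and Spp1 against the Csf1r-positive cells. Ratios past 2-fold to blood came below it under 1 or more alternatives for Birc2, Cd9, Hist1h2ab, Hist1h3e, Idh1, Ifi27l2a, Irf1, Itga4, Itgax, Lyz2, Mki67, Rela, Relb, Slc2a1 and Tlr4, as did Timp1 after the library profile was subtracted, Cxcl1 against the Csf1r-positive cells under the median of ratios, and Sgol1 against the 321 cells; the cause was not tested. The alternatives with the 321 cells, without the 10 cells, without barcodes shared between libraries, and with the 967 Ptprc cells were chosen after seeing the data. The 10 cells were left out of the tendon neutrophils only, and blood and bone marrow were not filtered in the same way.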

Other observations

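Stefin and other antiprotease genes, several of which are abundant in neutrophils, leaned neither way between tendon and blood. Of 14 stefin and antiprotease genes tested, 3 were at least 2-fold higher in the tendon neutrophils and 2 lower (16.2% and 13.2% over all genes), and the median log2 ratio of 0.11 turned to -0.17 when S100a8 and S100a9 were left out of the totals. Stfa2l1, a stefin that blocks cysteine proteases, was at 2003 CPM in the tendon, 1408 in blood and 229.97 in bone marrow, and Gm5483, a gene of the same family, at 2714, 2097 and 234. The members of this family are alike in sequence, and the division of UMIs between them is uncertain. Cstb, the widely expressed cystatin B, was higher, at 545 against 79.0 CPM in blood, and Wfdc21, a whey acidic protein gene of neutrophil granules, was lower, at 2849 against 6487.

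The genes furthest above the Csf1r-positive, C1q-low tendon cells were Ngp, Ly6g, Prok2, Retnlg, Mrgpra2b, Stfa2l1, Asprv1, Cxcr2, Gm5483 and G0s2. The Ngp level came mostly from the 10 cells chosen by Ltf, Camp and Ngp. It was at 25423 CPM in them and 239 in the other 352 cells. Prok2, a secreted peptide that acts on nerves and leukocytes, was at 202 CPM in the tendon neutrophils, 297 in blood and 52.8 in bone marrow, against 0.160 in the Csf1r-positive cells. Mrgpra2b, a receptor that neutrophils use to sense peptides, was at 195, 202 and 109, against 0.214. G0s2, an inhibitor of fat breakdown, was at 3149, 199.9 and 123, against 16.1, so its level in the tendon stood above blood by 3.98 (3.84 to 4.12) on the log2 scale. The 10 genes furthest below were Sdc4, Plpp3, Gja1, Tceal8, Col5a2, Thbs2, Igf1, Il6, Adamts5 and Bgn, between -7.73 and -6.78, several of which are genes of connective tissue.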
